A study of Mus musculus with 2 samples.

Results

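Mmp12 Gpnmb macrophages are a rare group of tumor-associated macrophages in tumors of MC38 cells, a mouse colon carcinoma line that was implanted under the skin. They were chosen by counts of unique molecular identifiers (UMIs, each standing for 1 captured RNA molecule) in single cells. A cell needed at least 5 UMIs of C1qa, C1qb and C1qc together, no UMI of Cd3e, Cd3g or Trac, at most 1 of Krt8, Krt18 and Rhox5, at most 2 of Mki67, Top2a, Cdk1, Birc5 and Ccna2, fewer than 8 of Ifit1, Ifit2, Ifit3, Rsad2 and Cmpk2, and at most 3 of Ccl8, Igf1 and Vcam1. It then needed at least 3 UMIs of Mmp12 and Gpnmb together and had to pass 1 further gate. Of the 25402 cells kept from 31371 droplets in the whole series, 72 met every gate. These values describe the choice, and no gene named in it is a finding.

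The study compared 2 libraries of live sorted cells, 1 labelled WT from Lmo7+/+ hosts and 1 labelled LMO7_KO from Lmo7-/- hosts, all female C57BL/6 mice of 6 to 8 weeks that carried MC38 tumors. LMO7 is a LIM domain protein, the deletion was in the whole body of the host, and the implanted tumor cells were not deleted. The number of mice behind each library is not given in the sources used here. With 1 library per genotype there was no replicate and no test of genotype, and every interval below covers counting error only.

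Tumor-associated macrophages arise largely from blood monocytes and take on different states within a tumor. Mmp12 (chr9:7344381-7369499, GRCm38) encodes macrophage elastase. Gpnmb (chr6:49036546-49070929) is a glycoprotein of lysosomes and the cell surface that marks macrophages loaded with lipid, Hmox1 (chr8:75093621-75100589) encodes heme oxygenase 1, and Atp6v0d2 (chr4:19876841-19922605) encodes a subunit of the lysosomal proton pump.

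The Lmo7+/+ library gave 25 of the 72 cells, with 124516 UMIs in all and a median of 4782 per cell (range 1340 to 12314). The library labelled Lmo7-/- gave 47, with 218601 UMIs and a median of 4365 (range 1017 to 12765). None of the 72 was marked as a doublet by Scrublet, and none carried one of the 279 cell barcodes found in both libraries. Lmo7 itself had 0 UMIs in the 25 and in the 47 cells. In the other resting macrophages, which are the 2048 and 2283 cells that passed all but the last 2 gates and failed either of those, Lmo7 stood at 1.48 CPM (counts per 1000000 counts of the same cells) in the Lmo7+/+ library and at 1.58 CPM in the other. Lower Lmo7 RNA was thus not detectable at this depth, the genotype rests on the label alone, and the second library is called the library labelled Lmo7-/-.

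The cells carried the RNA of macrophages. Apoe, which encodes a lipid carrier protein, stood at 5710 CPM (95% Poisson interval 5298 to 6146) in the 25 cells and at 4895 CPM (4606 to 5197) in the 47. Cd68, a lysosomal macrophage marker, was present in 24 of 25 and 46 of 47 cells. Adgre1, which encodes F4/80, was seen in 15 and 25 cells. Its level was 321 and 183 CPM, and 319.6 and 377 CPM in the other resting macrophages. The 3 C1q chains differed from the other resting macrophages by a log2 ratio of no more than 0.43 in size in either library. Both groups had to pass the C1q gate, so this describes the choice and is no evidence of identity.

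The name Gpnmb fits a minority of the cells. Mmp12 alone reached 3 UMIs in 25 of 25 and 45 of 47 cells. Gpnmb had a UMI in 8 of 25 and 19 of 47, and alone reached 3 UMIs in 2 and 12. Atp6v0d2 had a UMI in 3 of 25 cells and 14 of 47. The group is therefore called Mmp12 macrophages from here on, although other macrophages carry Mmp12 as well. Of the 195 and 187 resting macrophages past the Mmp12 and Gpnmb gate, 170 and 140 failed the last gate and are not among them. T cells, which should lack these RNAs and have a median of 2323 and 2344 UMIs, showed a Gpnmb UMI in 2.60% and 1.21% of cells and an Atp6v0d2 UMI in 0.260% and in 0 of 577, which allows a share of up to 0.520%. After each cell was thinned to 1000 UMIs, the share with a Gpnmb UMI was 16.0% and 27.7% in Mmp12 macrophages against 0.781% and 0.347% in T cells. Gpnmb is a gene of the gate, so this difference follows in part from the choice and is no finding.

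Mmp12 ranged from 3 to 52 UMIs per cell, with a median of 8, in the Lmo7+/+ library, and from 1 to 100, with a median of 9, in the library labelled Lmo7-/-. Gpnmb ranged from 0 to 10 UMIs and from 0 to 82, with a median of 0 in both. The ranges overlapped for both genes, and the highest cell of each gene was in the library labelled Lmo7-/-. Just inside the Mmp12 and Gpnmb gate, 0 and 2 cells had exactly 3 UMIs of these genes. Just outside it, 2 and 10 cells that met the other gates had exactly 2.

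Mmp12 macrophages made up 25 of 4266 macrophages, 0.586% (95% Clopper-Pearson interval 0.380% to 0.864%), where the host was Lmo7+/+. The other library held 47 of 4761, 0.987% (0.726% to 1.31%). It was thus 0.401 percentage points higher (95% Newcombe interval 0.0315 to 0.775), and 0.224 points higher with the Mmp12 and Gpnmb gate at 6 UMIs (20 and 33 cells). Of all cells kept, Mmp12 macrophages were 0.185% and 0.396%. The share that met the Mmp12 and Gpnmb gate but not the last gate went the other way. The Mmp12 and Gpnmb gate was met by 195 and 187 resting macrophages, of which 12.8% and 25.1% also met the last gate. Those that met the former without the latter were 3.985% and 2.94% of macrophages, a difference of -1.04 points (-1.81 to -0.29), lower in the library labelled Lmo7-/-.

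Cells past the last 2 gates also occurred among macrophages set aside for another state. They were 13 of 1343 cycling macrophages of Lmo7+/+ origin and 21 of 1163 of the second library. They were 7 of 132 and 10 of 110 among macrophages rich in interferon-induced Ifit RNA, or 5.30% and 9.09%. Among macrophages rich in Ccl8, Igf1 and Vcam1 they were 21 of 718 and 58 of 1158.

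The Mmp12 macrophages were not uniform. In the library labelled Lmo7-/-, 11 of the 19 cells with a Gpnmb UMI had an Atp6v0d2 UMI, against 3 of the 28 without, with median depths of 4515 and 4102 UMIs. In those 19 cells Atp6v0d2 stood at 328 CPM against 32.2 CPM in the 28. Ctsl, which encodes the lysosomal protease cathepsin L, stood at 1588 CPM against 435 CPM. Ctsd (cathepsin D) stood at 1768 CPM against 548 CPM, and Fabp5, a fatty acid binding protein, at 2805 CPM against 661 CPM. Of the 265 Fabp5 counts of the 19 cells, 160 were in 2 cells, and the other 17 cells stood at 1360 CPM. Nos2 stood at 677 CPM against 435 CPM. In the Lmo7+/+ library the 8 cells with a Gpnmb UMI, with a median depth of 4165 UMIs against 4926 in the other 17, had Ctsd at 1120 CPM against 563 CPM and Lgals3 at 8146 CPM against 4189 CPM. Hmox1 was at 967 CPM against 305 CPM, with 18 of the 38 counts in 1 of the 8 cells. In the library labelled Lmo7-/- Trem2 stood at 614 CPM against 306 CPM and Lyz2 at 9452 CPM against 3488 CPM. Both went the other way in the Lmo7+/+ library, Trem2 at 204 CPM against 269.8 CPM and Lyz2 at 1884 CPM against 2065 CPM. Atp6v0d2 was at 25.5 CPM against 23.5 CPM there, from 3 UMIs in all.

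**Figure D1:**
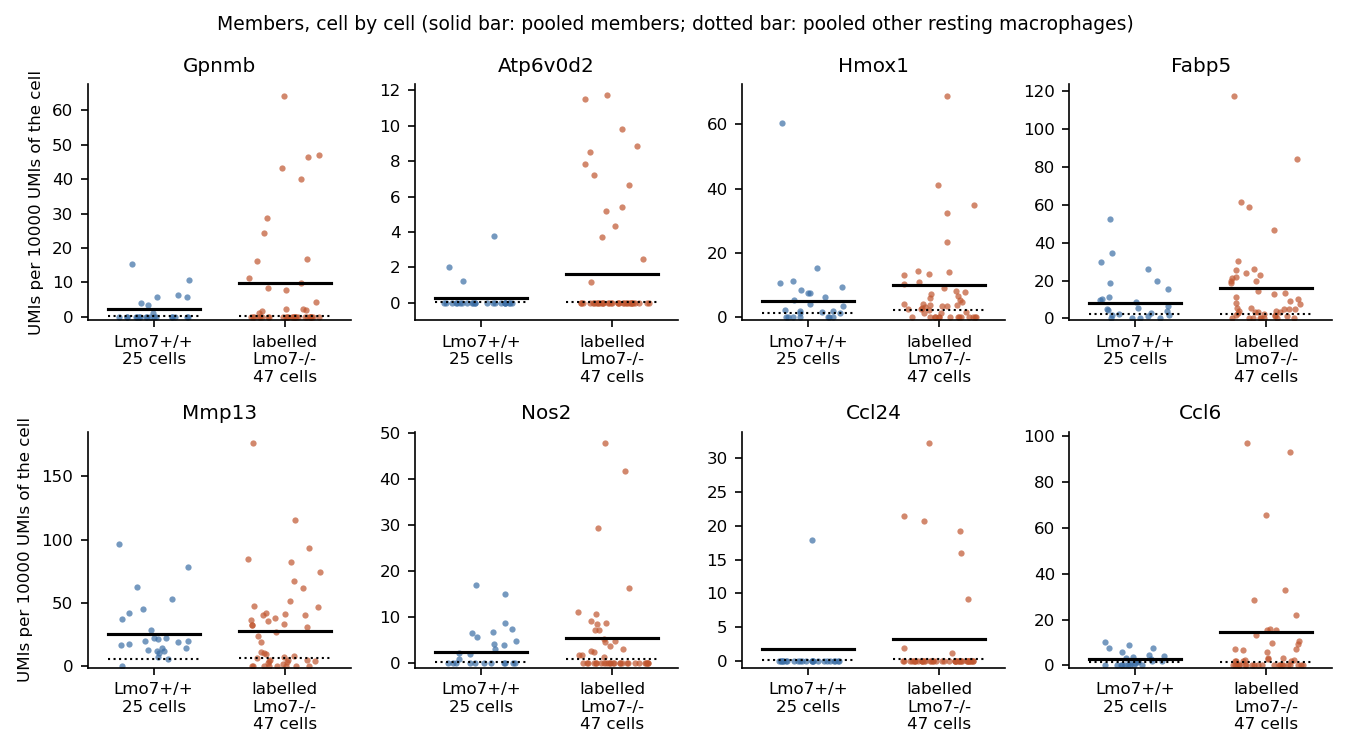
UMIs per 10000 UMIs of the cell for 8 genes in each of the 25 and 47 Mmp12 macrophages, 1 point per cell, with the pooled level of these cells as a solid bar and that of the other resting macrophages as a dotted bar. Gpnmb, Atp6v0d2 and Ccl24 are at 0 in most cells, whereas Mmp13 had a UMI in 24 of 25 and 39 of 47.

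Counts were then summed over the Mmp12 macrophages and over the other resting macrophages of each library. A gene was called where the log2 ratio of the CPM values was 1 or more, or -1 or less, in both libraries. Of 8628 genes with at least 50 counts in each library, 990 were at 0 in these cells with too few counts to give a direction. Of the remaining 7638, 130 were higher, a background of 1.70%, and 206 were lower, 2.70%. The cells were chosen from the same counts, so these are descriptions and not tests. The median over all 7638 genes was a log2 ratio of -0.11 in the Lmo7+/+ library and -0.14 in the other. The share of all genes with the same sign in both libraries is not given, so list counts of positive or negative genes are descriptions. Many calls rest on few UMIs. With at least 10 counts required at the level of the other cells, which leaves fewer genes to compare, 30 genes were higher and 36 lower.

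By the fixed rule the highest genes beside those of the gates were Ccl24, Tnfrsf9, Xylt1, Nos2, Il7r, Inhba, F10, Syngr1, Rassf8, F13a1, Mmp13, Rgcc, Cd300lb, Mgst1, Adam8, AA467197, Hmox1, Slc7a2, Fabp5 and Clec4d, from 5 to 321 counts in the Lmo7+/+ library and from 6 to 607 in the other. Tnfrsf9, which encodes the costimulatory receptor 4-1BB, had 32 and 49 counts in 11 of 25 and 19 of 47 cells, or 257 and 224 CPM against 31.3 and 32.9 CPM. Its log2 ratio was 3.04 (2.46 to 3.57) and 2.77 (2.30 to 3.21). Il7r, the interleukin 7 receptor chain, stood at 281 and 265 CPM against 36.6 and 50.8 CPM, in 12 and 28 cells. T cells also carried both RNAs, Tnfrsf9 at 891 and 1024 CPM and Il7r at 136 and 203 CPM. Of the 14 T and natural killer cell markers, 11, Cd3d and Cd8a among them, were at 0 in the Mmp12 macrophages of both libraries. These cells were chosen to hold no UMI of Cd3e, Cd3g or Trac, so this follows in part from the choice. Whether any of the 2 RNAs came from T cells was not tested. Ccl24, a chemokine that attracts eosinophils, had all of its 22 counts in 1 of the 25 cells and 71 counts in 8 of the 47. F13a1, the factor XIII A chain, had 25 counts in 3 cells and 37 in 13.

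Enzymes that cut extracellular matrix were among the abundant genes that were higher. Mmp13, collagenase 3, ranged from 0 to 51 UMIs per cell (median 11) in the Lmo7+/+ library and from 0 to 54 (median 7) in the other. It stood at 2578 and 2777 CPM against 550 and 646 CPM, a log2 ratio of 2.23 (2.06 to 2.39) in the Lmo7+/+ library and an interval of 1.98 to 2.22 in the other. Adam8, a membrane protease, was found in 24 of 25 and 45 of 47 cells. Its level was 1598 and 1674 CPM, and 297 and 443 CPM in the other resting macrophages. Of the 14 genes of the matrix list that could be compared, of 17 in all, Mmp8, Mmp13, Mmp19 and Adam8 were called and 9 were positive in both libraries. The remaining matrix genes were not uniformly higher. Tgfbi stood at a log2 ratio of -0.46 and -0.89, and Mmp14 at 0.25 and -0.02.

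The starts of several of these genes share a short motif. The motif TGANTCA, bound by the AP-1 dimers of Fos and Jun proteins and its own reverse complement, was searched in the 250 bases before each RefSeq gene start (GRCm38.p6, the assembly also called mm10). Of the 130 higher genes, 103 had an upstream sequence and 18 of these held the motif, 17.5%, and without the genes of the gates 16 of 100 did. It was held by 5.41% of the 6159 tested genes with a sequence, by 7.82% of all 27025 genes of the table and by 7.78% of the 167 lower genes with one. The hypoxia response core ACGTG was in 32.0% of the higher genes against 27.1% of those tested. The MiT box TCANGTG was in 13.6% against 13.4%, and the antioxidant response core TGACNNNGC in 13.6% against 14.1%, all searched on both strands, and TGANTCA and TGACNNNGC can overlap. These are matches of letters, not sites of binding. Below stand the 250 bases before the downstream of the 2 Mmp12 starts, with its AP-1 match and its MiT match in capitals. The lines after it show up to 10 bases on either side of the AP-1 match, in capitals, for every other higher gene with at least 20 counts in these cells of each library, 5′ to 3′ along the gene.
Mmp12, chr9:7347124-7347373, plus strand: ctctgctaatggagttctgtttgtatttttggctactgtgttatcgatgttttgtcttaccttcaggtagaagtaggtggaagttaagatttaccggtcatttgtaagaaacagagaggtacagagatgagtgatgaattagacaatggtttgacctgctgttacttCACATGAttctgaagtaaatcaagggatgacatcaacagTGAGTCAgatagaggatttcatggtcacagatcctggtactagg
AA467197, chr2:122637804-122637830, plus strand: gcacgtgagtTGACTCAgtgcgacgcg
Ccl9, chr11:83578673-83578699, minus strand: ttactctctcTGAATCAatttgaactt
Cd84, chr1:171839458-171839484, plus strand: cagtttctctTGAGTCAattttcttgt
Ecm1, chr3:95739617-95739643, minus strand: cagcagggacTGAGTCAtggcaggaaa
Emp1, chr6:135362776-135362802, plus strand: tctgtgtgtcTGAGTCAgagggagcta
Emp1, chr6:135362896-135362922, plus strand: aaatccagacTGATTCAtagaaactcc
Hilpda, chr6:29272488-29272514, plus strand: tggactgcagTGAATCAaccgcgagcc
Il1a, chr2:129309973-129309994, minus strand: cagagaagccTGACTCAgactt
Mmp13, chr9:7272469-7272495, plus strand: cccaaagtggTGACTCAtcactatcat
Tnfrsf9, chr4:150927974-150927998, plus strand: cctgctcagtTGAGTCAcaggtcct

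In Mmp12 the AP-1 match lay 44 to 38 bases before the downstream start, while the 250 bases before the upstream start held none of the 4 motifs. In Mmp13 it lay 35 to 29 bases before the start. In Tnfrsf9 it lay 15 to 9 bases before the start and in Il1a 12 to 6. Gpnmb held none of the 4 motifs in its 250 bases.

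Of 20 listed genes of lipid handling, 19 had enough counts and 15 gave a direction in both libraries. Of these 15, 14 were positive in both, 5 were called and none was called lower, and the median log2 ratio was 0.97 and 1.59 (0.97 and 1.14 with the genes at 0 set at 3 counts). Fabp5 ranged from 0 to 14 UMIs per cell (median 3) and from 0 to 107 (median 3), and stood at 803 and 1587 CPM against 226 and 226 CPM. Plin2, a coat protein of lipid droplets, stood at 426 and 494 CPM against 142 and 153 CPM. Abca1, which exports cholesterol, stood at 217 and 329 CPM against 81.6 and 95.2 CPM. Lgals3, galectin 3, was in 24 of 25 and 47 of 47 cells. It stood at 5437 and 5160 CPM, and at 1657 and 1839 CPM in the other resting macrophages. Cd9, a tetraspanin, was the last of the 5, at a log2 ratio of 1.09 and 1.14. Trem2, a lipid-sensing receptor, stood just under the threshold in 1 library, at 0.97 (0.40 to 1.48) and 1.93 (1.61 to 2.23).

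The lysosome list followed with smaller ratios. Ctsd was the only call of 23 genes, at 739 and 1075 CPM against 239 and 277 CPM, and 15 of the 23 were positive in both libraries with medians of 0.38 and 0.33. Ctsb, cathepsin B, was in every one of the 25 and 47 cells, at a log2 ratio of 0.97 and 1.07. The subunits of the proton pump were mixed, with Atp6v1a at 1.10 and 0.65 and Atp6v1d at 0.30 and -0.52. Atp6v0d2 had too few counts for a call, with 3 UMIs in the 25 cells and 35 in the 47.

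Hmox1 was the only call of 11 genes of heme and iron handling. It ranged from 0 to 18 UMIs per cell (median 1) and from 0 to 88 (median 2), and stood at 514 and 1011 CPM against 142 and 220 CPM. Its log2 ratio was 1.85 (1.47 to 2.22) and 2.20 (1.99 to 2.40), and 0.97 in the Lmo7+/+ library under a stricter last gate that left 12 cells there. The ferritin genes Fth1 and Ftl1 stood at 0.91 and 0.99, and at 0.81 and 1.07. Of 11 targets of NRF2 that gave a direction, Slc7a11, the cystine transporter, was called at 1.40 and 1.01, and the list medians were 0.07 and 0.11 (0.07 and 0.23 with the genes at 0 set at 3 counts), with either sign over the alternatives (-0.24 to 0.69 and -0.03 to 0.48).

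All 16 hypoxia genes that could be compared were positive in both libraries, and 5 were called. Their median log2 ratio was 0.86 and 1.03. Bnip3, a mitochondrial protein of mitophagy, stood at 578 and 435 CPM against 157 and 200 CPM. Hilpda, an inhibitor of lipid breakdown on lipid droplets, stood at 715 and 805 CPM against 251 and 217 CPM. Ero1l, an oxidase of the endoplasmic reticulum, and Egln3, an oxygen sensor, were called as well, with Ak4 on 4 and 8 counts. Glycolysis genes were positive in both libraries in 13 of 13 cases without a call, at medians of 0.74 and 0.53. Pgk1, phosphoglycerate kinase, stood at 1.19 (1.03 to 1.36) and 0.63 (0.48 to 0.77).

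Nos2, inducible nitric oxide synthase, makes nitric oxide from arginine. It had a UMI in 14 of 25 and 21 of 47 cells, and stood at 249 and 540 CPM against 26.2 and 93.5 CPM. Its log2 ratio was 3.25 (2.65 to 3.80) and 2.53 (2.24 to 2.81). T cells showed a Nos2 UMI in 0.781% and 0.693%. Slc7a2, a cationic amino acid transporter, was called at 1.83 and 2.71. Of the 11 genes of arginine and polyamine metabolism reported here, these 2 were called higher and none lower, 3 were positive and 4 negative in both libraries, and the medians were -0.31 and 0.30.

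Chemokines and cytokines split. Il1a, Cxcl1, Ccl6 and Ccl9 were called among 20 genes that gave a direction, and 9 of the 20 were positive and 7 negative in both libraries. Il1a, interleukin 1 alpha, stood at 353 and 242 CPM against 102 and 113 CPM, in 9 and 15 cells. Il1b stood at a log2 ratio of 0.12 and -0.20. Ccl5 was called at 2.88 and 1.14, but 56 and 46 of its 122 counts were in 2 of the 25 cells, and 94 and 30 of its 146 in 2 of the 47. Of the alternative activation list, Mrc1 (the mannose receptor), Ccl24 and Pdcd1lg2 (PD-L2) were called higher among 11 genes and Retnla was called lower, with 0 and 2 counts.

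**Figure D2:**
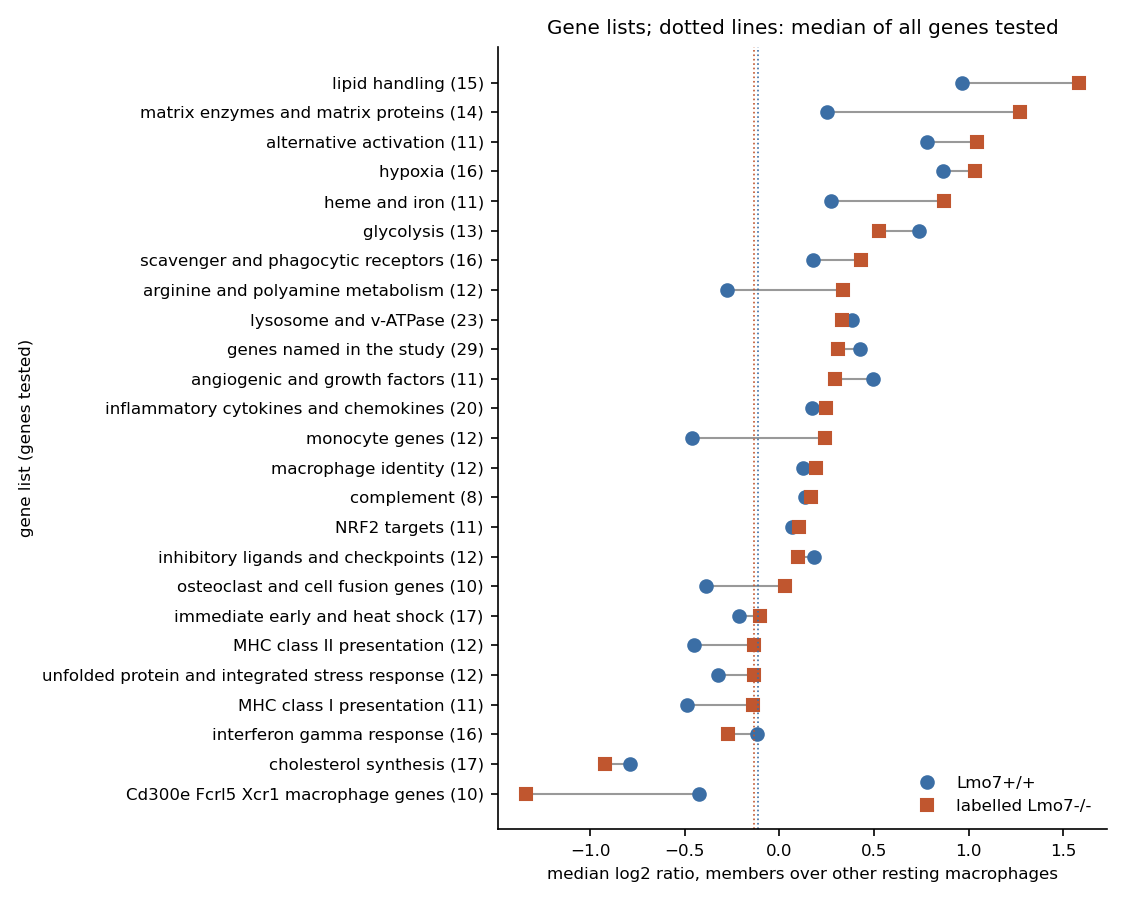
Median log2 ratio of Mmp12 macrophages over other resting macrophages for gene lists with at least 8 genes compared (number in brackets), in the Lmo7+/+ library (circles) and the library labelled Lmo7-/- (squares). Lipid handling, at 0.97 and 1.59, and hypoxia, at 0.86 and 1.03, lie right of the dotted medians of all genes, and cholesterol synthesis, at -0.79 and -0.92, lies left of them.

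Of 17 cholesterol synthesis genes, 14 were negative in both libraries and 5 were called, Idi1, Fdps, Lss and Msmo1 among them, with a median log2 ratio of -0.79 and -0.92. The counts were small. Idi1, isopentenyl diphosphate isomerase, had 2 and 4 counts, or 16.1 and 18.3 CPM against 113 and 73.0 CPM. Fdps, farnesyl diphosphate synthase, had 8 and 14 counts, at -1.55 and -1.28.

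Among the lowest genes, Dnase1l3, a secreted DNase, was the most abundant. It had a UMI in 8 of 25 and 12 of 47 cells and stood at 88.3 and 137 CPM against 388 and 629 CPM, a log2 ratio of -2.14 (-3.14 to -1.30) and -2.20 (-2.76 to -1.68). Siglece, an inhibitory lectin, stood at -2.43 and -2.23, and Clec4a3, a C-type lectin receptor, at -2.30 and -2.01. The others of the 15 lowest included Col3a1, Col6a3, Spn, Tlr12, Apmap, Fads2, Htra2, Erlin1, Idi1, Prep and Ighm. Several passed the threshold only under some choices. In the Lmo7+/+ library the ratio nearest to 0 over the alternatives was -0.08 for Apmap, -0.13 for Prep, -0.29 for Htra2, -0.49 for Col6a3, -0.52 for Erlin1, -0.68 for Fads2, -0.74 for Tlr12 and -0.95 for Ighm. In the other library it was -0.08 for Htra2, -0.69 for Fads2 and -0.87 for Erlin1, and Apmap turned to 0.24. The 15 had from 0 to 11 counts in the Lmo7+/+ library. Genes of the Cd300e Fcrl5 Xcr1 macrophages were negative in 7 of 10 cases, with Klra17 and Cd72 called lower, Cd72 at -1.04 and -1.80. No gene of MHC class II presentation was positive in both libraries and 8 of 12 were negative, none of them called. The medians of all genes were themselves negative, at -0.11 and -0.14. H2-Aa stood at -0.14 and -0.15 and H2-Eb1 at -0.45 and -0.33.

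The other lists held few calls. Macrophage identity genes had no call among 12 (medians 0.13 and 0.20), nor had 16 scavenger and phagocytic receptors or 12 genes of the unfolded protein and integrated stress response. There was 1 call each in MHC class I presentation (Nlrc5 lower), complement (C4b lower), monocyte genes (F10 higher), immediate early and heat shock genes (Ier3 higher) and osteoclast and cell fusion genes (Dcstamp higher). The interferon gamma list had Ccl5 higher and Gbp2b and Gbp3 lower among 16, the angiogenic list had Pdgfc and Areg higher among 11, and the checkpoint list had Pdcd1lg2 higher and Siglece lower among 12. Of 29 genes named in the study, a list the study chose on these samples, Nos2, Cxcl1, Ccl5, Mrc1 and Lgals3 were higher.

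Markers of other cells were few. The gates limited keratin, Rhox5 and T cell RNA, so this follows in part from the choice. The tumor cell list summed to 64.2 and 82.3 CPM against 501 and 515 CPM in tumor cells, and 11 and 10 of its 14 genes were at 0. It summed to 82.2 and 65.1 CPM in the other resting macrophages, which passed the same gates against other cells. The fibroblast and endothelial list summed to 96.4 and 86.9 CPM, a log2 ratio of -1.26 and -1.53 against the other resting macrophages, with Col1a1, Col1a2 and Col3a1 called lower. The T and natural killer cell list summed to 1020 and 700 CPM, of which Ccl5 gave 980 and 668 CPM, and 11 of 14 genes were at 0 in each library. Of the neutrophil list, Mmp8 was called higher on 4 and 19 counts, Il1r2 was the most abundant at 530 and 457 CPM, and S100a8, S100a9 and Ly6g were at 0. Dendritic cell, B cell and red cell lists had at most 7 counts in any gene.

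Cells past the Mmp12 and Gpnmb gate that did not pass the last one, 170 and 140 in number, stood between. The 29 higher genes with at least 10 expected counts, without the genes of the gates, had a median log2 ratio over resting macrophages that failed both gates of 1.70 and 1.60 in Mmp12 macrophages. The median was 0.84 and 0.79 in the cells past the Mmp12 and Gpnmb gate alone. The level in Mmp12 macrophages was above that of these cells for 28 and 29 of the 29 genes. In the resting macrophages past the last gate alone the median was 0.90 and 0.86, and the level in Mmp12 macrophages was above theirs for 24 and 28 of the 29. Mmp13 stood at 2578, 1339 and 461 CPM in Mmp12 macrophages, cells past the Mmp12 and Gpnmb gate alone and cells that failed both gates of the Lmo7+/+ library, and at 2777, 1786 and 538 CPM in the other. Tnfrsf9 had the same order, at 257, 133 and 20.3 CPM and at 224, 116 and 23.0 CPM. Mrc1 stood at 402, 82.7 and 109 CPM, lowest in the middle population, and in the other library at 334, 104 and 100.04 CPM. The genes were chosen on a contrast that includes these cells, so the order is a description.

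**Figure D3:**
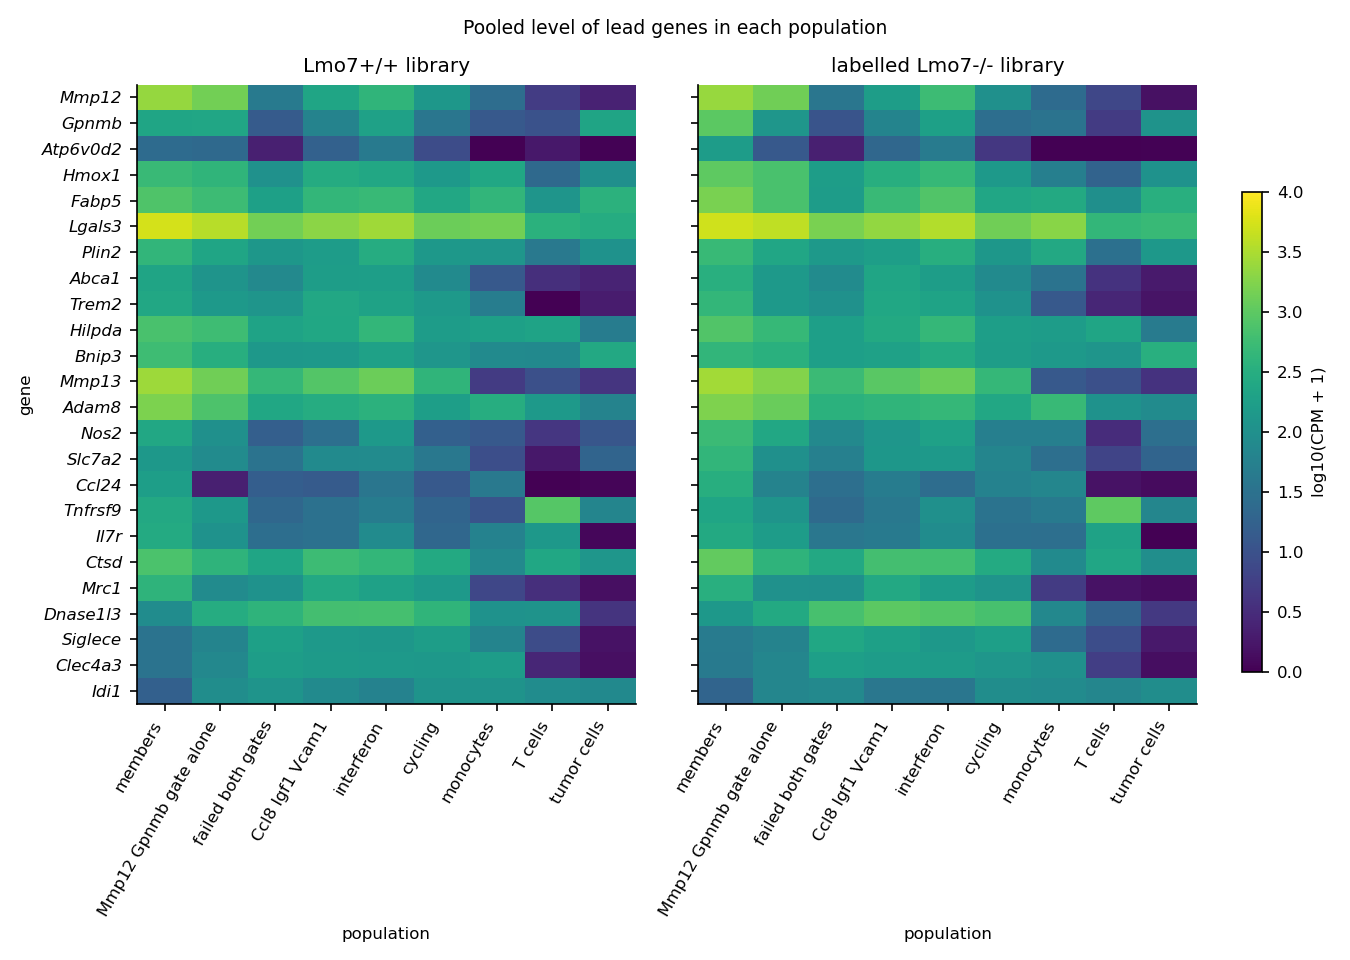
Pooled level, as log10 of CPM plus 1, of 24 genes in Mmp12 macrophages (the column members), other macrophage populations, monocytes, T cells and tumor cells of each library. Lgals3, Mmp13 and Adam8 are brightest in the first column of both panels, and Idi1 is darker there than in cells past the Mmp12 and Gpnmb gate alone.

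Within the Mmp12 macrophages, the library labelled Lmo7-/- was set against the Lmo7+/+ library over 1085 genes with at least 50 counts. These counts were summed over both libraries, so a gene could pass through the library with more cells alone, as Spp1 did. Of the 1085 genes, 37 had a log2 ratio of 1 or more, a background of 3.41%, and 12 had -1 or less, 1.11%. With a minimum of 20 counts the balance was 137 and 137. With genes taken by at least 10 counts expected in each library at the level of the other resting macrophages, a choice added after seeing the data, it was 90 and 95. Both choices change which genes are compared, so these numbers cannot be set directly beside 37 and 12 of 1085. The median of all 1085 was -0.02, and that of the same genes in the other resting macrophages was -0.01. These ratios compare 25 cells with 47, 1 library each, and were not tested. The highest 10 with at least 100 counts were Spp1, Cd36, Ccl6, Wfdc17, Slc7a2, Cxcl9, Lyz2, Tmsb10, Ifitm3 and Esd.

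Single cells carried much of some of these differences. Spp1, osteopontin, had 5 counts in 3 of 25 cells and 109 in 14 of 47, of which 67 were in 1 cell, a log2 ratio of 3.63 (2.37 to 5.29) against 0.17 in the other resting macrophages. Cd36, a scavenger receptor for oxidized lipid, ranged from 0 to 3 UMIs per cell and from 0 to 62, with a UMI in 4 of 25 and 24 of 47. Its log2 ratio was 3.53 (2.45 to 4.87), or 2.64 without the deepest cell of each library, against 0.73 in the other resting macrophages. Ccl6 ranged from 0 to 11 and from 0 to 124, with 2.30 (1.80 to 2.83), or 2.03 without those cells, against 0.17 in the other resting macrophages. Lyz2, lysozyme, was found in 18 of 25 and 44 of 47 cells, ranged from 0 to 42 (median 5) and from 0 to 215 (median 13), and stood at 2008 and 6066 CPM, a log2 ratio of 1.60 (1.40 to 1.80), against 0.54 in the other resting macrophages. The 5 highest of the 47 cells, at 106 to 215 UMIs, held 772 of the 1326 counts, and the 5 highest of the 25 held 149 of 250. Tmsb10, which binds actin monomers, stood at 1.40 and at 0.68 without the deepest cells, and Esd, an esterase, at 1.20 and 0.45. With macrophages of the cycling, interferon and Ccl8 states let in (66 and 136 cells), Spp1 turned to -0.60 and Ccl6 to -0.30, while Cd36 stood at 0.80, Wfdc17 at 0.14, Lyz2 at 0.89 and Tmsb10 at 0.60. With cells thinned to 3000 UMIs before the gates, Slc7a2 stood at 0.58, Cxcl9 at 0.77, Ifitm3 at 0.31 and Esd at 0.097. Each of the 10 highest genes was thus under the threshold in at least 1 alternative.

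For Gpnmb and Hmox1, too, the ratios were smaller without the deepest cells. Gpnmb, a gene of the gate, stood at 225 and 984 CPM, a log2 ratio of 2.13 (1.56 to 2.75), and at 1.37 without the deepest cell of each library, while 1 of the 47 cells held 82 of the 215 counts. Hmox1 stood at 0.98 (0.57 to 1.40), and at 0.18 without those cells. Fabp5 stood at 0.98 and then 0.48. Slc7a2 stood at 1.66 and 1.58, and Nos2 at 1.12 (0.54 to 1.74) and 0.96. In the other resting macrophages Nos2 stood at 1.83 and Slc7a2 at 0.78. Cxcl9, a chemokine induced by interferon gamma, was at 201 and 622 CPM, a log2 ratio of 1.63 against 1.20 in the other resting macrophages.

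The lowest 10 genes with at least 100 counts lay nearer to 0. The minimum was on summed counts, which genes low in the library with more cells meet less easily. The sizes of the highest and lowest ratios can therefore not be compared. They were Cadm1, Neurl3, C3ar1, Nckap1l, Arhgdia, Hnrnpa3, Hnrnpc, Hexa, Klf6 and Trf. Cadm1, an adhesion molecule, had a UMI in 19 of 25 and 22 of 47 cells and stood at 538 and 261 CPM, a log2 ratio of -1.05 (-1.58 to -0.51), and 0.046 once every cell was thinned to 3000 UMIs before the gates. Neurl3, a ubiquitin ligase, stood at -1.005 (-1.59 to -0.43), and at -0.48 with the other macrophage states let in, and the other 8 lay between -0.79 and -0.63. Of these 8, Trf turned to 0.088 with those states let in, and Klf6 stood at -0.022 with cells thinned to 3000 UMIs before the gates.

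Over the lists, lipid handling had a median genotype ratio of 0.52 in Mmp12 macrophages over 15 genes. This is no support for a difference, since Spp1, with 5 and 109 counts, and Cd36, with 7 and 142, reached the minimum only through the library labelled Lmo7-/-. With genes taken instead by at least 10 counts expected in each library at the level of the other resting macrophages, the median was 0.21 over 13 genes. It ran from -0.17, with the other macrophage states let in, to 0.85 over the alternatives. Hypoxia stood at -0.09 (-0.27 to 0.16 over the alternatives) and 0.24 and glycolysis at -0.20 and 0.12, with no call of 11 and 10. MHC class II presentation stood at 0.32 and 0.17 over 8 genes. The interferon gamma list stood at 0.51 and 0.79 over 7, with Cxcl9 and Irf1 called. Counts were summed over both libraries, so Irf1, at 2.21, could pass through the library labelled Lmo7-/- alone. Monocyte genes stood at 0.51 (0.21 to 0.74 over the alternatives) and at 0.055 in the other resting macrophages over 4, with 1 called higher. Other single monocyte genes fell under the minimum count, so they are not among these 4 and none of them is the call. Of these, S100a4 stood at 2.46 (0.77 to 4.82), Ly6c2 at 0.84 (-0.44 to 2.31) and Ccr2 at 0.77 (-0.20 to 1.85). Plac8 stood at -0.23 (-1.20 to 0.78), Itga4 at -0.81 (-1.87 to 0.25) and Cx3cr1 at -2.08 (-3.19 to -1.07). None of these differences between the cell groups was tested.

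**Figure D4:**
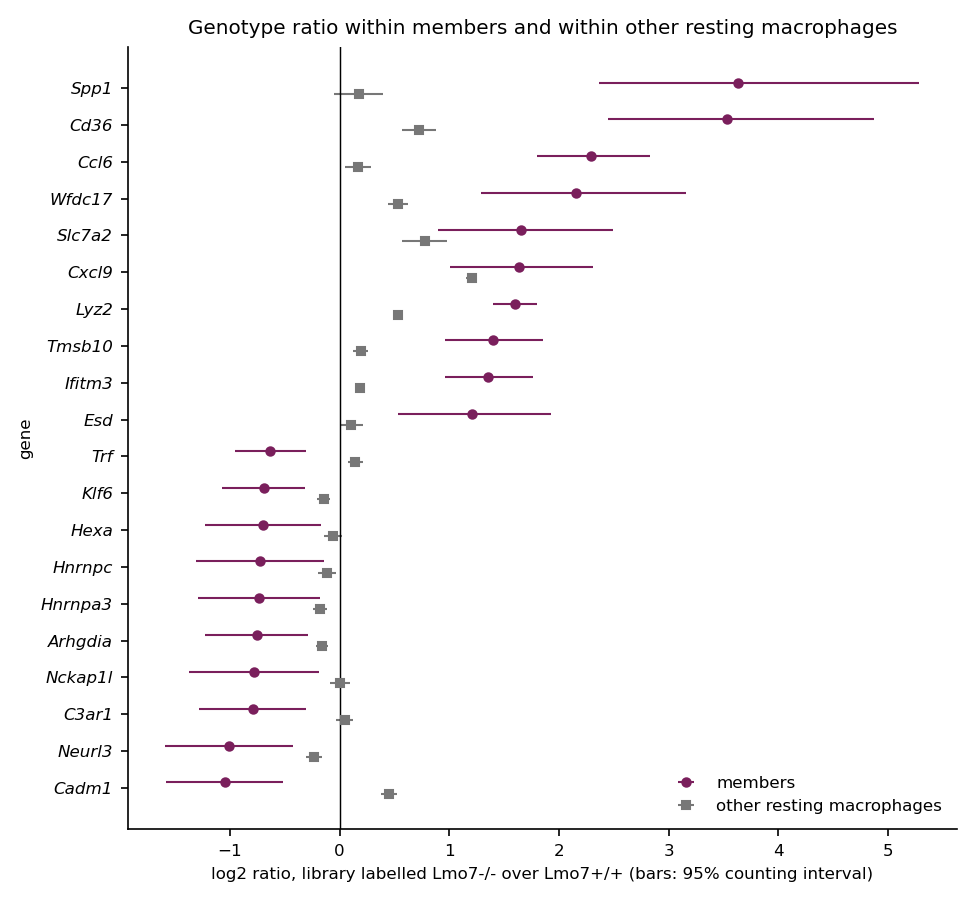
Log2 ratio of the library labelled Lmo7-/- over the Lmo7+/+ library, with 95% counting intervals, in Mmp12 macrophages (circles, the label members) and other resting macrophages (squares) for the 10 highest and 10 lowest genes. Spp1 and Cd36 lie farthest right, at 3.63 and 3.53, and Cadm1 lies at -1.05 against 0.45.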

How the data were processed

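Per the labels and the study's methods, live cells of MC38 tumors were sorted, captured on the 10x Genomics platform and sequenced, both libraries together. The authors deposited UMI counts per gene and droplet. The submitters' processing notes name Cell Ranger 2.1.1 and mm10. Cells were kept from 500 genes and 1000 UMIs upward if no more than 15% of UMIs were mitochondrial, of 98582479 and 80648345 UMIs in all. The gates used raw UMIs, so deeper cells pass more easily. The gene of the last gate and 2 further genes are not reported here. Counts were summed per population and library and given as CPM. Ratios against 0 used a floor of 3 counts. Intervals at 95% were exact Poisson, Clopper-Pearson, Newcombe and a binomial split. The cells, gene lists and motifs were chosen with earlier results of these data known. Named genes were the 20 highest and 15 lowest by the smaller ratio of both libraries, the 10 highest and lowest between genotypes with at least 100 counts, genes past the threshold in each list, and genes of the gates, without mitochondrial and ribosomal protein genes. Other genes given without a call, the printed sequences and the split by Gpnmb were chosen after values were seen. Scripts were tested on simulated data. Software was Python 3.11.15, scipy 1.17.1, scanpy 1.11.5 (Scrublet, expected to miss doublets of like cells) and edgeR 4.0.16 (TMM factors, alternative only). Alternatives changed the cell filter, gates, depth, normalization, minimum counts and comparison cells. Gene positions are of GRCm38 (GENCODE M21) and upstream sequences of RefSeq, GRCm38.p6, which matched 103 of 130 higher genes.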

Additional observations from a re-analysis of the deposited data

Results flagged for a closer look

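Genes past the threshold between genotypes in Mmp12 macrophages were set against the same ratio in the other resting macrophages. In 5 named genes the counting intervals lay on opposite sides of 0. The difference was not tested, since each genotype had 1 library. Cadm1 stood at a log2 ratio of -1.05 in Mmp12 macrophages and 0.45 in the other resting macrophages, and Ccl4, a chemokine, at -1.20 and 0.14. Fn1, fibronectin, stood at 1.80 and -0.16, and Ccl12, a chemokine for monocytes, at 2.19 and -0.27. Hspa1a, a heat shock protein, stood at 1.07 and -0.46, with 44 of its 48 counts in 1 of the 47 cells. Its near-identical copy Hspa1b stood at -3.55, with 57 of 60 counts in 1 of the 25 cells. Both values are uncertain, since how reads were divided between the copies was not tested.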

How the results depend on the processing

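Mmp12 macrophages here are the cells past every gate. Their share was higher in the library labelled Lmo7-/- under each of the 9 other choices set at the start. It was also higher without the deepest cell of each library. The main share of cells past the Mmp12 and Gpnmb gate but not the last one was lower there, at 3.985% and 2.94%. The difference for Mmp12 macrophages shrank by over 1.5 times with the Mmp12 and Gpnmb gate at 6, to 0.224 points. The difference left its interval only without the gates against cycling, interferon and Ccl8 states, at 1.31 points (66 and 136 cells). That choice also gave 32 genes lower between genotypes, and reversed Spp1 to -0.60, Ccl6 to -0.30 and Trf, from -0.63, to 0.088 between genotypes and Apmap to 0.24 against other cells in the library labelled Lmo7-/-. Cells thinned to 3000 UMIs gave 19 genes higher and 3 lower between genotypes and put Cadm1 at 0.046. TMM factors gave 6 lower. A minimum of 20 counts gave 137 higher and 137 lower, and a minimum of 200 gave 8 and 0, of 269 genes. At least 10 expected counts in each library, added after seeing the data, gave 90 and 95. Choices of minimum or expected counts change the set of genes compared, so their numbers of calls are not shares of the same set. Against other resting macrophages, a minimum of 200 counts gave 58 higher, the mean over cells 354 lower, and at least 10 expected counts, an alternative chosen after seeing the data, 30 higher and 36 lower. The other 63 shares and counts stayed within their interval or within 1.5 times the main count. TMM factors moved the median genotype ratio of all genes to 0.12. No paired analysis was possible because each genotype had 1 library.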
